A study of Mus musculus with 192 samples.

Results

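Genotype and brain region were crossed in the 4-month libraries of a 5xFAD mouse study, and the question here is whether the transcriptional difference between 5xFAD and wildtype (WT) mice differed between hippocampus and cortex. The comparison took every library of that age, 40 of the 192 libraries of the series, selected by the labelled age alone. They came from 20 mice, with a cortex and a hippocampus library from each. Mice are named by the sex and number in the labels, such as male_464. There were 10 5xFAD mice (5xFAD;BL6) and 10 WT mice (BL6), with 5 females and 5 males per genotype. The 5xFAD mice were hemizygous for transgenes, human mutant APP among them, driven by a Thy1 minigene that acts in forebrain neurons, and the WT mice were C57BL/6J littermates. Both genotypes were aged to 4 months, and microdissected tissue was sequenced in bulk. The paper describes a battery of behavioral tests that came before the molecular work, gene expression included.

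In 5xFAD mice, extracellular amyloid plaques form first in deep cortical layers and the subiculum of the hippocampal formation. Microglia, the resident macrophages of the brain, gather on plaques, raise lysosomal, complement and antigen presentation genes through the lipid receptor TREM2 and its adaptor TYROBP, and lose part of their resting program. Astrocytes respond later with intermediate filament genes such as Gfap. A genotype by region term asks, gene by gene, whether the step from WT to 5xFAD is larger in the hippocampus than in the cortex. It equals the difference between genotypes in how far the hippocampus and the cortex of the same mouse lie apart.

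The regional identity of the libraries was examined first. A region score was computed as the mean log2(CPM + 1) of 12 hippocampus markers minus that of 10 neocortex markers (CPM, counts scaled to the size of the library). In the WT medians, 12 of 12 hippocampus markers and 2 of 10 neocortex markers were higher in hippocampus. Cortex libraries of WT mice scored between -3.65 and -3.14, with a median of -3.33. Cortex libraries of 5xFAD mice scored between -3.46 and -2.5 in all mice but male_464, whose cortex library scored -0.33. That library had 66.8 CPM of Prox1, a transcription factor of dentate granule cells, where the other 19 cortex libraries had at most 22.5 CPM. Its summed striatum markers were 166.9 CPM, the lowest of the 40 libraries, where the other cortex libraries had at least 1153.1 CPM.

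Hippocampus libraries scored between -1.56 and 1.49 in all mice but male_466, a WT mouse at -2.78. The hippocampus library of 5xFAD mouse male_450 scored -1.54 and was the lowest of its group. These 2 libraries held 930.6 and 998.5 CPM of summed striatum markers, against at most 251.4 CPM in the other hippocampus libraries, and 14.7 and 19.0 CPM of Prox1. The libraries of mice male_464, male_450 and male_466 therefore carried markers of both labelled regions. WT mice female_331 and male_465 also had low hippocampal scores, -1.09 and -1.56, but no raised striatum markers. The within-mouse score difference (hippocampus minus cortex) was 3.38 ± 1.0 in 5xFAD and 3.18 ± 1.24 in WT mice (SD, n = 10 each), a difference of 0.20 that was smaller than the spread between mice (two-sided permutation test, p = 0.71). Without the 3 mice the values were 3.79 ± 0.57 (n = 8) and 3.48 ± 0.84 (n = 9), a difference of 0.31 (two-sided permutation test, p = 0.40).

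**Figure D1:**
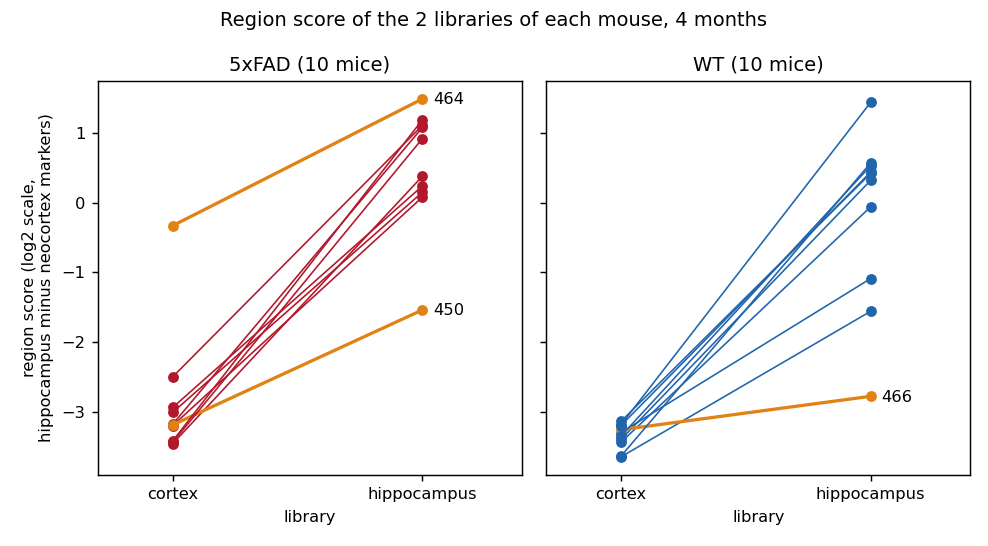
Region score of the cortex and hippocampus library of each mouse (y axis, log2 scale), joined by a line, for 10 5xFAD and 10 WT mice. Orange lines mark mice male_464, male_450 and male_466, and the cortex library of male_464 sits at -0.33 while the hippocampus library of male_466 sits at -2.78.

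Library depth ran from 6876933 to 30377305 expected counts, and no pair of libraries within a group held identical values (0 of 180 pairs). Choroid plexus markers varied most between libraries, and their sum ranged from 12.5 to 13032.3 CPM. Bulk tissue cannot tell a change in the number of cells of a type from a change in RNA per cell, and this holds for every gene below.

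With all 20 mice and the mouse as block, 9 of 17108 genes passed the genotype by region test (edgeR quasi-likelihood, adjusted p under 0.05), which is 0.0526% of the genes tested. In 7 of them the term was above 0, so that the signed 5xFAD difference was more positive in the hippocampus, and in 2 it was below 0. Below, a larger hippocampal difference means a term above 0, also where the difference was negative in cortex, as for Grin2c. A further 1250 genes had an unadjusted p under 0.05, so that 1259 genes (7.36%) did in all. The median term over all genes was 0.00 on the log2 scale. The 9 genes were Thy1, the neuronal gene whose promoter drives the transgenes, the cathepsin genes Ctsz and Ctsd, the leukocyte genes Arhgdib and Plaur, the astrocyte gene Aspg, the NMDA receptor subunit Grin2c, and Lrrc58 and Psd3.

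The lysosomal proteases Ctsd and Ctsz rose in both regions and further in the hippocampus. Ctsd (mm10 chromosome 7, 142375911-142388038) encodes cathepsin D, the main aspartyl protease of lysosomes. It was measured at 482 to 583 CPM in WT cortex (median 549), 559 to 1090 in 5xFAD cortex (median 823), 494 upward in WT hippocampus (SD 44.4, n = 10) and 702 to 1540 in 5xFAD hippocampus (median 1130). The genotypes overlapped slightly in cortex and not at all in hippocampus. Its log2 difference was 0.54 ± 0.10 (SE) in cortex and 1.04 ± 0.10 in hippocampus, and the term was 0.49 ± 0.09 (adjusted p = 0.030, edgeR quasi-likelihood).

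Ctsz, another lysosomal cathepsin (chromosome 2, 174427493-174439039), had nearly the same pattern. It ran from 61.0 to 74.4 CPM in WT cortex, 66.9 to 116 in 5xFAD cortex, 50.9 to 63.9 in WT hippocampus and 64.2 to 158 in 5xFAD hippocampus, with medians of 66.7, 94.6, 54.6 and 116. In the hippocampus all 5xFAD libraries lay above all WT libraries, whereas the cortical ranges overlapped. The term was 0.53 ± 0.09 (adjusted p = 0.024, edgeR quasi-likelihood). Within mice, hippocampus exceeded cortex by a median of 0.36 log2 in 5xFAD and fell by 0.19 in WT, and 9 of 10 5xFAD mice lay above every WT mouse. Mouse male_450 was the exception, at -0.22.

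Arhgdib and Plaur differed by genotype in the hippocampus and did not pass the test in the cortex. Arhgdib (chromosome 6, 136923655-136941899), a GDP dissociation inhibitor of blood and immune cells, had medians of 15.3 CPM in WT cortex (12.5 to 17.1) and 16.2 in 5xFAD cortex (12.8 to 19.5). In the hippocampus it was 9.81 CPM in WT (9.03 to 10.5) and 15.1 in 5xFAD (10.7 to 16.6), with no overlap. The WT hippocampus therefore held less of this transcript than the WT cortex, and the 5xFAD hippocampus came near to the cortical level. The term was 0.45 ± 0.08 (adjusted p = 0.024, edgeR quasi-likelihood).

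Plaur (chromosome 7, 24462484-24475968), the urokinase receptor, had the largest term of the 9 genes, 1.48 ± 0.26 (adjusted p = 0.027, edgeR quasi-likelihood), a ratio of 2.78. It is a scarce transcript, at 1.37 to 3.11 CPM in WT cortex (median 2.07), 1.10 to 2.86 in 5xFAD cortex (1.84), 0.359 to 1.61 in WT hippocampus (0.681) and 0.918 to 2.5 in 5xFAD hippocampus (1.85). Only the WT hippocampus stood low, and its range overlapped that of 5xFAD hippocampus. The differences by region were -0.21 in cortex (adjusted p = 0.60) and 1.22 in hippocampus (adjusted p = 0.0016, both edgeR quasi-likelihood).

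Aspg (chromosome 12, 112106679-112127559), an asparaginase gene on the list of reactive astrocyte genes, was the single member of that list to pass. Its CPM was 1.99 to 3.42 in WT cortex (median 2.77), 1.96 to 3.85 in 5xFAD cortex (3.11), 1.53 to 2.28 in WT hippocampus (1.87) and 2.91 to 4.47 in 5xFAD hippocampus (3.96). The genotypes did not overlap in the hippocampus and overlapped almost fully in the cortex. The term was 0.88 ± 0.14 (adjusted p = 0.015, edgeR quasi-likelihood), and the within-mouse values of all 10 5xFAD mice exceeded those of all WT mice.

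Thy1 (chromosome 9, 44043384-44048579) was higher in 5xFAD in every library of both regions. The WT range was 258 to 323 CPM in cortex and 205 to 282 in hippocampus, and the 5xFAD range was 460 to 727 and 501 to 773. The transgene cassette itself carries Thy1 sequence, so native and transgenic transcripts cannot be told apart in these counts. The log2 difference was 1.05 ± 0.07 in cortex and 1.48 ± 0.08 in hippocampus, with a term of 0.43 ± 0.07 (adjusted p = 0.015, edgeR quasi-likelihood). The mice with mixed libraries were the extremes of this gene. The 2 lowest 5xFAD within-mouse values belonged to male_464 and male_450, and WT mouse male_466, at 0.08, was above every other WT mouse, which reached at most -0.20. The endogenous App gene did not pass in either region or for the term (0.02 ± 0.06, adjusted p = 0.97, edgeR quasi-likelihood).

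Grin2c (chromosome 11, 115249169-115267243) passed for the term although it passed in neither region by itself. It encodes the NR2C subunit of the NMDA glutamate receptor, which in the forebrain is found largely in astrocytes. Its term was 0.50 ± 0.08 (adjusted p = 0.015, edgeR quasi-likelihood), from -0.28 in cortex and 0.26 in hippocampus. All 4 groups overlapped, with medians of 24.3 CPM in WT cortex, 17.7 in 5xFAD cortex, 17.2 in WT hippocampus and 19.7 in 5xFAD hippocampus. The difference was visible within mice, where the hippocampus lay 0.12 to 0.91 log2 below the cortex in WT and between -0.12 and 0.30 from it in 5xFAD.

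Lrrc58 and Psd3 went the other way, and both passed upward in the cortex and did not pass in the hippocampus. Lrrc58 (chromosome 16, 37868389-37888858), a leucine-rich repeat gene, had medians of 123 CPM in WT cortex (118 to 146), 156 in 5xFAD cortex (136 to 166), 161 in WT hippocampus (153 to 181) and 165 in 5xFAD hippocampus (143 to 182). The log2 difference was 0.30 ± 0.04 in cortex and 0.00 ± 0.05 in hippocampus, and the term was -0.30 ± 0.05 (adjusted p = 0.015, edgeR quasi-likelihood). Every 5xFAD mouse lay below every WT mouse in its within-mouse value. Lrrc58 and Aspg were the 2 genes of the 9 in which the within-mouse ranges of the genotypes did not overlap. The 9 genes were selected by this same contrast and the share over all genes was not computed, so this is a description.

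Psd3 (chromosome 8, 67689082-68212027), an exchange factor for the GTPase ARF6 at synapses, had medians of 142 CPM in WT cortex (130 to 188), 181 in 5xFAD cortex (159 to 230), 253 in WT hippocampus (mean 246 ± 41.3 SD) and 196 in 5xFAD hippocampus (mean 204 ± 44.8 SD, n = 10 each). Both regions overlapped between genotypes. The log2 difference was 0.33 ± 0.07 in cortex (adjusted p = 0.014) and -0.27 ± 0.11 in hippocampus (adjusted p = 0.25, both edgeR quasi-likelihood). Both regions thus entered the term, which was -0.61 ± 0.11 (adjusted p = 0.030, edgeR quasi-likelihood). Mouse male_525 gave the highest WT cortex value of both Lrrc58 and Psd3, at 146 and 188 CPM.

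Of these genes, Grin2c, Thy1, Lrrc58 and Aspg passed whichever single mouse was left out, although only Thy1 of these 4 still passed when 5 mice, named with the omissions that follow, were left out together. Ctsz passed in 13, Arhgdib in 12, Plaur in 10, Psd3 in 8 and Ctsd in 5 of the 20 fits without a mouse, and the terms of these genes kept their sign in each. Without the mouse as block, only Aspg passed (adjusted p = 0.018, edgeR quasi-likelihood). Females and males alone, with 5 mice per genotype, gave no gene past the test (1322 and 665 genes at an unadjusted p under 0.05), and the 9 terms had the same sign in each sex.

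**Figure D2:**
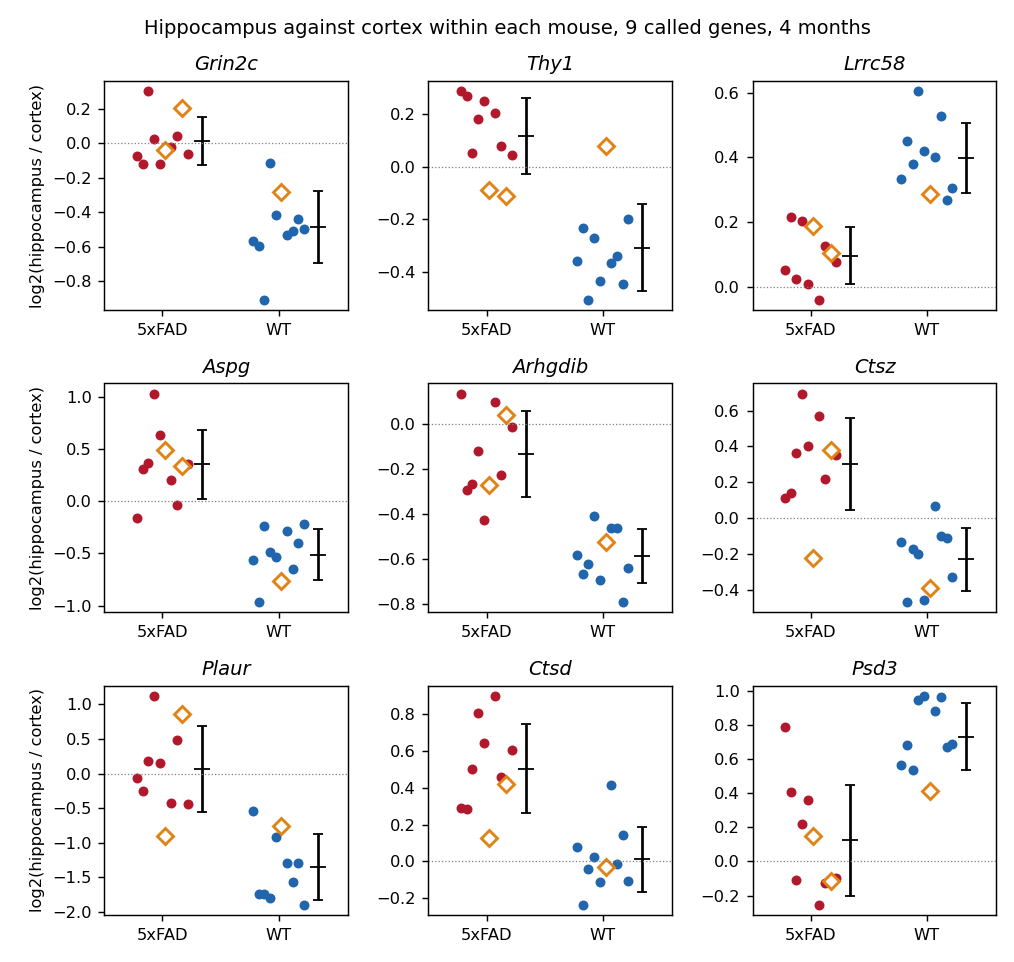
Log2 ratio of hippocampus to cortex CPM within each mouse (y axis) for the 9 genes that passed with all 20 mice. Points are mice, open orange diamonds are mice male_464, male_450 and male_466, and black bars give mean and SD of 10 mice per genotype. In Lrrc58 and Aspg the genotypes do not overlap, and all 9 genes were selected by this contrast.

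The genes ranked 10 to 20 did not pass the test with all mice. They were Irf8, Zfpm1, C1qb, Arhgap23, Siglech, Spint1, Trem2, Pld4, Ptgs1, C1qc and H2-DMb1, with terms from 0.31 to 1.19 and adjusted p from 0.065 to 0.12 (edgeR quasi-likelihood). Irf8 is a transcription factor of myeloid cells, Siglech a lectin of microglia and Pld4 an endosomal nuclease.

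Leaving out mice male_464, male_450 and male_466 raised the number of genes that passed to 35 of 17096, or 0.205% (edgeR quasi-likelihood), of which 31 had the larger 5xFAD difference in the hippocampus and 4 the smaller. All 9 genes above were among the 35. The mice left out were all male, so the sexes were then unequal in both genotypes. With a sex by region term added, 41 genes passed there. Leaving out the mice one at a time gave 34 genes without male_450, 11 without male_466 and 4 without male_464. Of these 3 omissions, that of male_450 gave the count nearest to 35. Mouse male_450 had the lowest within-mouse value of the 5xFAD mice in 23 of the 31 genes, among them Ctsz, Plaur, Ctsd and the complement genes. The 31 genes were selected with this mouse left out and the share over all genes was not computed, so this is a description. Among the 7 genes with a term above 0 called with all mice, male_450 was lowest in 3. When WT mice female_331 and male_465 were also left out, 9 genes passed in the remaining 15 mice, all of them among the 35. Only 3 of the 9 genes called with all mice were among these, Thy1, Ctsz and Plaur. Grin2c, Lrrc58 and Aspg were lost there (adjusted p = 0.069, 0.057 and 0.21, edgeR quasi-likelihood), as were Arhgdib (0.19), Ctsd (0.085) and Psd3 (0.16).

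**Figure D3:**
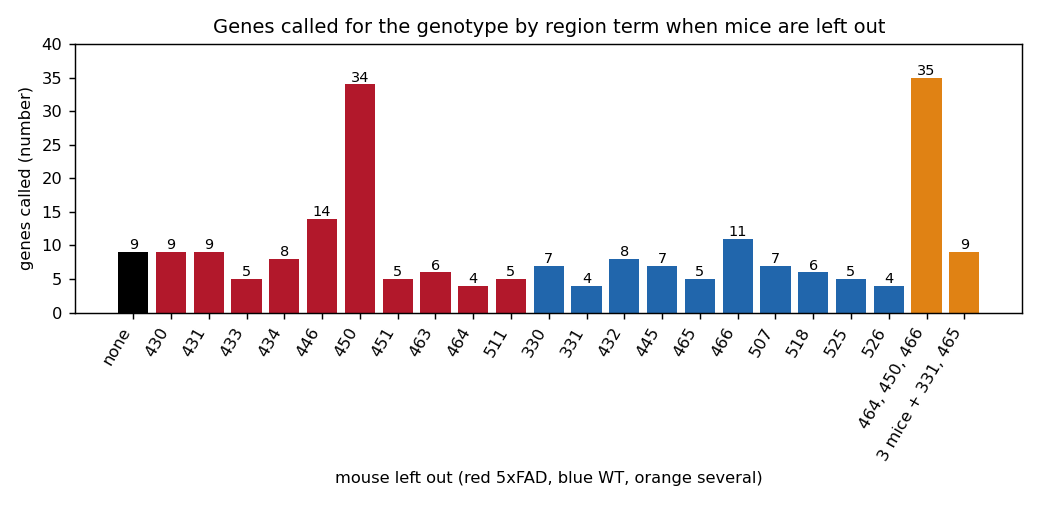
Number of genes that passed the genotype by region test (y axis) with all 20 mice, without each mouse in turn, and without several mice. Single omissions gave 4 to 34 genes, and the highest bar among them is the omission of mouse male_450.

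Without the 3 mice, the number of genes called for the term went from 2 to 6 in the list of plaque-associated microglia, from 0 to 2 in that of homeostatic microglia and from 0 to 4 in that of complement. Over all genes tested, the share called went from 0.0526% to 0.205%. The 3 chains of complement C1q, the recognition molecule that starts the classical cascade and that microglia make in the brain, passed together. C1qc had CPM of 58.7 to 73.3 in WT cortex (median 66.9), 61.5 to 116 in 5xFAD cortex (98.9), 52.5 to 67.1 in WT hippocampus (58.7) and 62.8 to 153 in 5xFAD hippocampus (121). Its term was 0.63 ± 0.09 without the 3 mice (adjusted p = 0.0032) and 0.50 ± 0.11 with them (adjusted p = 0.11, both edgeR quasi-likelihood). C1qb and C1qa had terms of 0.63 and 0.52 without the 3 mice, and 0.52 and 0.42 with them.

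Trem2, the receptor on which plaque-associated microglia depend, ran from 19.9 to 26.1 CPM in WT cortex (median 22.9), 25.9 to 61.2 in 5xFAD cortex (49.3), 16.8 to 20.5 in WT hippocampus (18.6) and 23.3 to 80.8 in 5xFAD hippocampus (65.1). The hippocampal groups did not overlap, and the cortical groups overlapped only between 25.9 and 26.1 CPM. Its difference was 0.96 ± 0.14 in cortex and 1.65 ± 0.15 in hippocampus. The term was 0.82 ± 0.12 without the 3 mice (adjusted p = 0.0049) and 0.68 ± 0.14 with them (adjusted p = 0.10, both edgeR quasi-likelihood). Within mice, all 8 remaining 5xFAD mice lay above all 9 WT mice, from 0.12 to 1.23 against -0.62 to -0.13, whereas mouse male_450 was at -0.58. Of the 35 genes, 14 had no overlap of the within-mouse ranges without the 3 mice. These genes were selected by the same contrast with these mice left out. The share over all genes was not computed, so this is a description.

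The endosomal marker Cd68 behaved alike, with medians of 14.1, 26.5, 11.4 and 34.2 CPM in WT cortex, 5xFAD cortex, WT hippocampus and 5xFAD hippocampus, and a term of 0.90 ± 0.13 without the 3 mice (adjusted p = 0.0049, edgeR quasi-likelihood). Tyrobp, the signalling adaptor of TREM2, had a term of 0.80, the protease Ctss 0.71, the Fc receptor Fcgr3 0.70, the checkpoint receptor Lag3 0.77 and the integrin chain Itgb2 0.73, all past the test without the 3 mice. Irf8, a transcription factor that sets microglial identity, had 0.87, and the resting-state gene Siglech 0.45. Both genes of the activated and of the resting program were thus among those with the larger hippocampal difference.

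Further genes that passed were named after their values were seen. They included Arhgap23, Cd72, Cebpa, Irf5, Mir6236, H2-DMb1, Zfpm1, Fcer1g, Mpeg1, Laptm5 and Nckap1l in the direction of the hippocampus, and Slc7a11 and Lzts3 in the other. Slc7a11, the cystine-glutamate antiporter, had a term of -0.49 without the 3 mice. Zfpm1, Arhgap23, Cebpa and Mir6236 passed, like Grin2c, in neither region alone.

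On the linear scale, the change in CPM from WT to 5xFAD was more positive in hippocampus than in cortex for all 31 genes, for example 39.7 against 21.7 CPM for Trem2 and 55.4 against 24.4 CPM for C1qc (group means of all mice, no test). Mir6236 had no increase in either region, with changes of -1.09 CPM in cortex and -0.0066 in hippocampus. Of the 31 genes, 26 passed in hippocampus by itself, where 2.71% of the genes tested passed upward, and 17 passed in cortex, where 1.06% did. These 17 passed in both regions. For 30 of the 31 genes the WT hippocampus was lower than the WT cortex, and for the 4 genes of the other direction it was higher. The WT libraries enter the term, so this is a description of its parts and not a separate result.

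**Figure D4:**
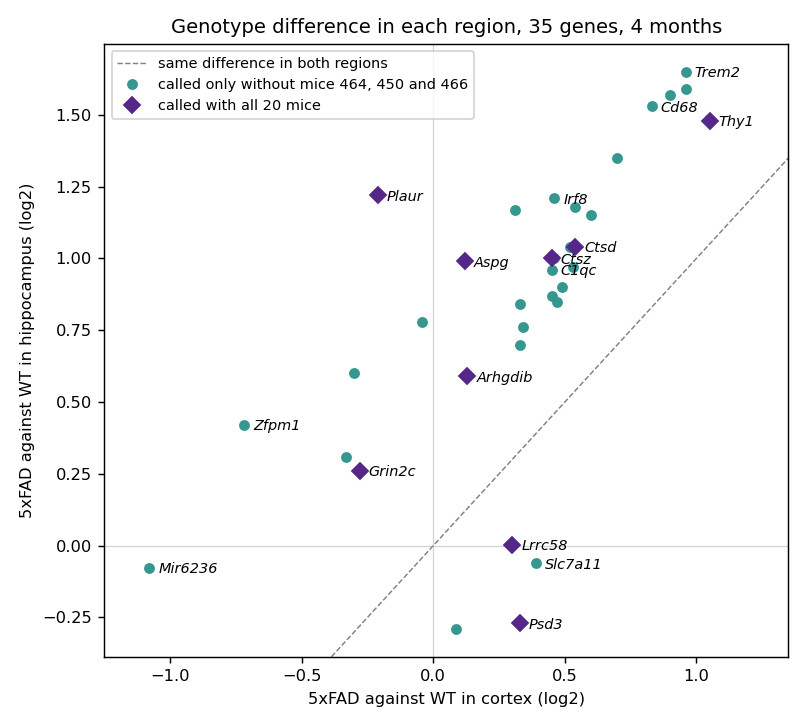
Log2 difference of 5xFAD against WT in cortex (x axis) and hippocampus (y axis), all mice, for the 35 genes that passed without mice male_464, male_450 and male_466. Purple diamonds passed with all mice as well, and the dashed line marks the same difference in both regions. Trem2 and Cd68 lie far along both axes, while Aspg, Arhgdib and Plaur lie near 0 on the x axis.

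The sequence before the start sites of the 31 genes, which were selected for the sign of their term, was compared. Of these, 22 were matched by symbol to RefSeq starts (GRCm38.p6), with 26 windows of the 250 bases before the start. The motif GAGGAA, the core bound by the myeloid ETS factor PU.1, was searched on both strands, where TTCCTC is its reverse complement. It was present in 12 of 26 windows (46.2%), of 11 genes, and in 23.3% of all 32851 windows. The longer forms AGGAAGT and GAGGAAGT, which overlap it, were in 4 (15.4%) and 2 (7.69%) of the 26 windows, and in 7.69% and 2.44% of all windows. A match of 6 letters is a description of the sequence and not a binding site. Windows of 3 genes with these matches are shown because they are microglial genes of the hippocampal direction whose RefSeq start lies within 13 bases of the annotated gene start. They cover chr17:48346151-48346400 on the plus strand for Trem2, chr4:136886201-136886450 on the minus strand for C1qb and chr3:95526536-95526785 on the plus strand for Ctss, and capitals mark the motif.
Trem2: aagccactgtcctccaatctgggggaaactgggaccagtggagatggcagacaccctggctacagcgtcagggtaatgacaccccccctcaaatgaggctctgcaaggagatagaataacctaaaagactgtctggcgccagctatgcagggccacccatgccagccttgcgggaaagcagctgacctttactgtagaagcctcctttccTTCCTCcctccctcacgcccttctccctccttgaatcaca
C1qb: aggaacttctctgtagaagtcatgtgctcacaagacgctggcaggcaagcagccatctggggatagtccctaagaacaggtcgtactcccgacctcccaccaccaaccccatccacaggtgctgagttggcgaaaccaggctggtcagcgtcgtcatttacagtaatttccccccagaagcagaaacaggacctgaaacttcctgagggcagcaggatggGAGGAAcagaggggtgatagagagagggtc
Ctss: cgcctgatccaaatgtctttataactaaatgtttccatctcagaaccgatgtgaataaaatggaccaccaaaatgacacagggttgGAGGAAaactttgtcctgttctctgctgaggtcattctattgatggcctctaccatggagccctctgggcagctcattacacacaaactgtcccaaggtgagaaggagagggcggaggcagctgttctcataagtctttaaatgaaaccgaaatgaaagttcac
The motif lay 34 bases before the start in Trem2, 24 in C1qb and 158 in Ctss, and these 3 windows held it once each.

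The genotype difference was next described within each region for fixed gene lists. In cortex 173 genes passed upward and 24 downward (0.147%), and in hippocampus 521 passed, of which 87 went downward (0.543%). These counts come from separate fits and their difference was not tested. Without the 3 mice, 99 genes passed in cortex, against 197 with all mice. Of the plaque-associated microglia list, 15 of 27 members passed in cortex and 20 of 28 in hippocampus, all upward, with median log2 differences of 0.45 and 0.85. The median over all genes was 0.00 in both regions. Cst7, a cystatin induced in these cells, reached medians of 15.3 CPM in 5xFAD cortex and 27.1 in 5xFAD hippocampus from 0.24 in both WT groups, and Ccl6, a chemokine, had differences of 2.48 and 2.95. The median term of the list was 0.34, with 2 of 29 called (Ctsz and Ctsd) and 26 above 0, and without the 3 mice it was 0.39 with 6 called. Cst7 did not pass for the term (0.64 ± 0.93, adjusted p = 0.94, edgeR quasi-likelihood).

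Homeostatic microglia genes followed a smaller step. Here 13 of 17 passed upward in cortex and 15 of 17 in hippocampus, with medians of 0.33 and 0.63. Csf1r, the receptor on which microglial survival depends, had differences of 0.30 and 0.64. Without the 3 mice the cortical count fell to 8 of 17, and Csf1r no longer passed in cortex (adjusted p = 0.074, 0.026 with all mice, edgeR quasi-likelihood), while the hippocampal count stayed at 15. The list's median term was 0.26 with none of 17 called, and 0.33 with 2 called without the 3 mice. In the complement list 8 of 15 and 9 of 15 passed upward, all 17 terms were above 0 with a median of 0.29, and 4 were called without the 3 mice.

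Interferon-stimulated genes rose in both regions, with 11 of 23 past the test in cortex and 21 of 23 in hippocampus, at medians of 0.81 and 1.14. Lgals3bp, Rtp4 and Oasl2 had differences of 1.11, 0.81 and 1.2 in cortex and 1.64, 1.39 and 1.48 in hippocampus. All 24 terms were above 0, with a median of 0.34, yet none was called with or without the 3 mice. Antigen presentation genes passed in 1 of 15 cases in cortex, B2m, and in 11 of 15 in hippocampus, with a median term of 0.33 and none of 16 called. Among these, B2m, the light chain of MHC class I, H2-K1, a heavy chain, and Tap1, a peptide transporter, had hippocampal differences of 0.89, 0.67 and 0.86. Passing in one region and not in the other does not show a difference between them, and the terms of B2m (0.37), H2-K1 (0.33) and Tap1 (0.33) did not pass.

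Lysosomal genes passed upward in 5 of 22 cases in cortex and 10 of 22 in hippocampus, with a median term of 0.14, and the cortical count was 3 without the 3 mice. Hexa, a lysosomal hexosaminidase, had 0.22 and 0.43, and Grn, encoding progranulin, 0.38 and 0.61. Genes of cholesterol synthesis passed upward in 6 and 7 of 23 cases, with a median term of 0.07. Fdps, an enzyme of the isoprenoid branch point, had differences of 0.29 and 0.43.

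Immediate early genes, which neurons transcribe within minutes of activity, fell in hippocampus in 11 of 25 cases and in cortex in 1 of 25, Egr1, with median differences of -0.55 and -0.41. Without the 3 mice, 10 passed in hippocampus and none in cortex (Egr1 adjusted p = 0.12, edgeR quasi-likelihood). Fosb had medians of 12.5 CPM in WT and 6.31 in 5xFAD hippocampus, and 19.3 and 12.3 in cortex. Egr1 had differences of -0.58 in cortex and -0.98 in hippocampus. The median term was -0.03 with none of 25 called. Nr4a2, the nuclear receptor gene with the lowest unadjusted p of the list, had a term of -0.69 ± 0.22 (adjusted p = 0.43, edgeR quasi-likelihood).

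Among astrocyte genes, Gfap, the filament protein of reactive astrocytes, had medians of 147 and 332 CPM in WT and 5xFAD cortex and 407 and 1000 in hippocampus, with differences of 1.16 and 1.19 and a term of 0.15 ± 0.24 (adjusted p = 0.94, edgeR quasi-likelihood). The reactive astrocyte list had 3 and 4 of 15 genes past the test and a median term of 0.13. The general astrocyte list had 1 of 14 in each region and a median term of -0.11, and its member with the lowest p, the connexin Gjb6, had -0.27 (adjusted p = 0.37). None of the glutamatergic synapse, interneuron, neuropeptide, oligodendrocyte, endothelial, meningeal or blood list members was called for the term, and their medians ran from -0.07 to 0.14. Among amyloid processing genes Mme, encoding the amyloid-degrading protease neprilysin, had -0.50 in cortex (adjusted p = 0.078) and -0.91 in hippocampus (adjusted p = 8.6e-05, both edgeR quasi-likelihood), with a term of -0.37 that did not pass.

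Markers of neighbouring tissue were uneven between the groups, and no member of the choroid plexus, ependyma, hippocampus, neocortex, thalamus or striatum lists was called in either region with all mice. The summed choroid plexus markers had medians of 49.6 CPM in WT cortex, 339.8 in 5xFAD cortex, 107.0 in WT hippocampus and 2567 in 5xFAD hippocampus, with ranges that overlapped throughout. The median term of this list was 0.52 over 12 genes, of which none was called, and that of the ependyma list 0.59 over 6. In cortex, 9 of 10 hippocampus markers tested were higher in 5xFAD at an unadjusted p under 0.05 with all mice (edgeR quasi-likelihood). Without the 3 mice, 4 of 10 were. Over all genes tested in cortex, 15.1% and 12.6% had such a p in either direction. The median cortical difference of these markers was 1.18 with all mice and 0.26 without the 3 mice. Hippocampus markers had a median term of -0.42 with all mice and -0.09 without the 3 mice, neocortex markers -0.31 in both, and striatum markers 0.26 and -0.02. The part of these tissue differences in the 35 genes was not tested. With the region score of each library as a covariate, 10 genes passed, the 9 genes among them. With a length score (count-weighted mean log2 exon length of a library) as covariate, 2 genes passed, of which 1, Grin2c, was among the 9, and this score had medians of 12.12 in WT cortex, 12.14 in 5xFAD cortex, 12.16 in WT hippocampus and 12.17 in 5xFAD hippocampus.

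The older mice of the series are other animals, so the same genes could be tested there. At 8 and 12 months 0 of 16836 and 0 of 17385 genes passed the genotype by region test (edgeR quasi-likelihood, with 3.78% and 2.68% at an unadjusted p under 0.05). At 18 months, with 72 libraries, 289 of 16975 passed (1.70%). Of the 31 genes with the larger hippocampal difference at 4 months, 29 had terms above 0 at 8 months, 28 at 12 months and 28 at 18 months, where 47.3%, 49.6% and 48.3% of all genes did. Their median term was 0.55 at 4 months with all mice and 0.30, 0.32 and 0.35 at the older ages. The 31 genes were selected by their terms in the 4-month mice, so the 4-month median can lie high for that reason. A change of the term with age was not tested. At 18 months 8 of the 31 passed, Aspg, Arhgdib, Ctsz, C1qa, C1qb, C1qc, Mpeg1 and Nckap1l. Aspg had 0.60, 0.49 and 0.91 at 8, 12 and 18 months, and C1qc 0.43, 0.31 and 0.45.

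At the older ages Grin2c had terms of 0.19, -0.34 and -0.17, Lrrc58 0.00, -0.01 and -0.06, and Psd3 0.08, -0.05 and -0.22, and none of these passed. None of the 4 genes with the smaller hippocampal difference passed at any older age. Plaur kept a positive term of 0.63, 0.73 and 0.62 without passing. Thy1 had 0.27, 0.43 and 0.55, with an adjusted p of 0.078 at 18 months (edgeR quasi-likelihood). The libraries of the older ages were not screened for mixed regions here.

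**Figure D5:**
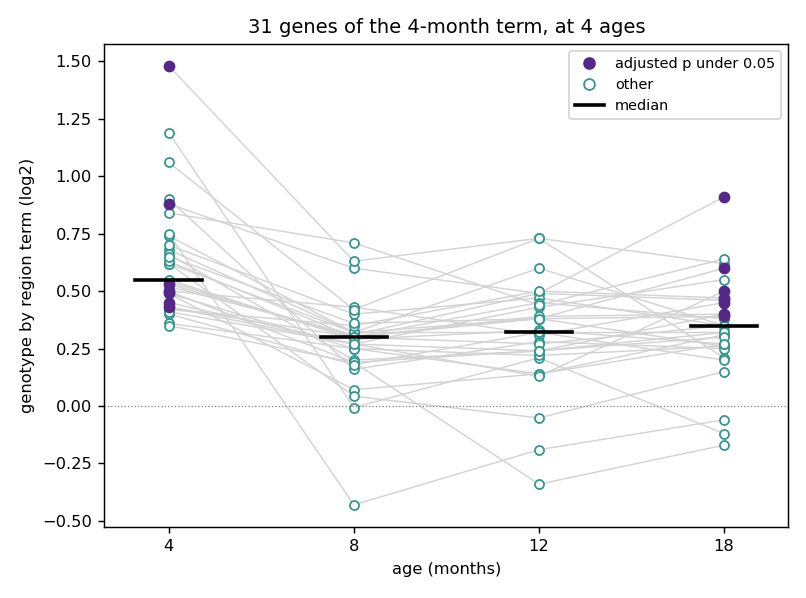
Genotype by region term (y axis, log2) at 4, 8, 12 and 18 months (x axis) for the 31 genes with the larger hippocampal difference at 4 months without mice male_464, male_450 and male_466, fitted with all mice of each age. Points are genes, filled where the adjusted p was under 0.05, and bars are medians of 0.55, 0.30, 0.32 and 0.35. The genes were selected by their terms at 4 months, so the first median is not comparable with the others.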

How the data were processed

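Bulk RNA was sequenced from microdissected cortex and hippocampus with a modified SMART-seq2 and Nextera protocol. Per the submitters' notes, the authors aligned reads to mm10 with STAR 2.5.1b and quantified genes of the GENCODE M21 annotation with RSEM 1.2.22. The deposited values were expected counts per gene (55449 genes, not normalized, 87.7% whole numbers) and TPM (transcript abundance scaled for length and depth by the authors). Expected counts were rounded to whole numbers. TPM served only as an alternative for the region score. All columns matched a sample label (0 unmatched). Titles were followed for 2 older hippocampus libraries whose column names gave the other genotype.

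Genes were kept by filterByExpr (minimum count 10, minimum total 15) and scaled by TMM. The genotype by region term was tested by edgeR 4.0.16 quasi-likelihood F tests in R 4.3.3 with the mouse as block and Benjamini-Hochberg adjustment over all genes tested, with a threshold of 0.05. Genotype within a region was tested over its 20 libraries without covariates. A log2 value below is this fitted term, with its SE. CPM are TMM-scaled, and within-mouse ratios used log2(CPM + 0.1). Both libraries of a mouse come from the same animal. Deviations from the group means correlated at a mean of r = 0.263 across genes for the same mouse and -0.014 for different mice, and exceeded 0.1 in 18 of 20 mice (genes are not independent).

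In simulated data built on these libraries, 84 of 100 genes with a planted term of 1 log2 and 56 of 100 with 0.5 were recovered, with 11 false calls among 16659 genes. Dispersions came from a fit without the mouse as block and the scarcest genes were not planted, so these rates are only a guide. Genes were named by a rule: those called with all mice, up to 15 called without mice male_464, male_450 and male_466, the next by p to a total of 20, the top members of 24 gene lists, and Thy1, App, Trem2, Cst7 and Gfap. Some items that the rule names are not reported here. Members and lists were chosen with earlier results of these data known. Alternatives were no block, RLE scaling, no filter, DESeq2 1.42.0, sex by region, each sex, region or length score as covariate, and leaving out mice. Leaving out mice female_331 and male_465 as well, and combinations with the 3 mice left out, were chosen after seeing the data. RSEM shares ambiguous reads between similar genes. Counts limit precision for scarce genes such as Plaur. Symbols shared by several identifiers (108) were kept apart by identifier.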

Additional observations from a re-analysis of the deposited data

Results flagged for a closer look

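The difference between 5xFAD and WT differed between hippocampus and cortex at 4 months, by a test of the difference itself, in 9 genes. The genotype by region log2 differences were 0.50 for Grin2c, 0.43 for Thy1, -0.30 for Lrrc58, 0.88 for Aspg, 0.45 for Arhgdib, 0.53 for Ctsz, 1.48 for Plaur, 0.49 for Ctsd and -0.61 for Psd3.

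Single libraries stood far from the other 9 of their group in 7 of 46 groups of values examined. Chance alone gives about 1 in 20 for independent groups, but these groups share mice and related measures. Mice male_464, male_450 and male_466 had also been named as mixed beforehand, so the count is a description and not a test. In 5xFAD cortex, mouse male_464 had a region score of -0.33 and summed striatum markers of 167 CPM. In 5xFAD hippocampus, mouse male_450 had a region score of -1.54 and summed striatum markers of 998 CPM. In WT hippocampus, mouse male_466 had summed striatum markers of 931 CPM. In WT cortex, mouse male_525 had 146 CPM of Lrrc58 and 188 CPM of Psd3, above the rest of its group. Without mouse male_525, 5 genes passed the genotype by region test.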

How the results depend on the processing

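The number of genes called for the genotype by region term at 4 months (9) was 1 with no replicate block, 35 without mice male_464, male_450 and male_466, 18 with no low-count filter, 41 by DESeq2, 0 in females, 0 in males and 2 with the length score as covariate. RLE scaling (9), a sex by region term (9), the region score (10) and the omission of female_331 and male_465 with the 3 mice (9) moved the count by less than 1.5 times, but only 3 of the 9 genes called with all mice were called under that omission, with Grin2c, Lrrc58 and Aspg among those lost. Omitting each of the 20 mice gave 4 to 34. Without the 3 mice, the number was 0 with no replicate block (1065 genes at an unadjusted p under 0.05), 66 by DESeq2, 33 with RLE scaling and 41 with a sex by region term, and omitting a further mouse gave 16 (mouse female_331) to 41 (mouse male_526). In the paired fits, DESeq2 thus called more genes than edgeR, and the cause was not tested. The cortex count (197) was 99 without the 3 mice and 455 by DESeq2. At 12 months 1 gene was called without mouse male_377, and at 18 months 135 with no replicate block. The 9 terms kept their direction under all these alternatives. Direction reversed for App (-0.055 in males, -0.0054 to 0.039 over the omissions of each mouse, lowest without female_434) and, without the 3 mice, for the differences of Lrrc58 (-0.027, and -0.0093 with no filter) and Mir6236 (0.55) in hippocampus and Spint1 in cortex (0.10), none past the test. The main limit is that calls change with single mice and that 3 mice have libraries with markers of both regions.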
